A study of Mus musculus with 15 samples.

Results

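Sostdc1 and 9 further genes of bone morphogenetic protein (BMP) signalling were followed in mouse pancreas, 10 genes of 20660 with a named probe on the array. They are the secreted antagonist Sostdc1, the ligands Bmp2, Bmp4 and Bmp7, the receptor Acvr1c, the inhibitory SMADs Smad6 and Smad7, and the target genes Id1, Id2 and Id3. A probe belongs to a gene when its RefSeq accession maps to that gene's symbol, which gave 13 probes for the 10 genes. The set was chosen by its cerulein responses on these arrays, that is on the log2 differences between cerulein and saline. Its values for cerulein against saline are therefore given as a description, without a test, and only the comparisons between genotypes are tested. Those comparisons share arrays with the choice of the set, above all the one after cerulein and the one of the responses. Their p-values and intervals are therefore not independent of the choice. Where calls of the 10 genes for cerulein against saline are counted below, the counts are a description too.

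Total RNA of whole pancreas from male C57BL/6J mice was hybridised to one-colour arrays, 1 array per animal. The 4 groups are 4 wild type mice given saline, 4 wild type mice given cerulein, 3 transgenic mice given saline and 4 transgenic mice given cerulein. Cerulein is an analogue of cholecystokinin that elicits acute pancreatitis in rodents, and it was given intraperitoneally as a single dose of 50 µg/kg. All 15 animals had fasted for 18 h and were killed 3 h after the injection, although the labels give 0 h as the time of the saline mice. The series title names betacellulin (Btc), a ligand of the EGF receptor and of ERBB4, and the labels call the transgenic animals TG. The promoter of the transgene, the line and the age of the animals are not given in the sources used here. The labels number every animal separately, from 2 to 16, and those numbers are used below as replicate numbers.

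BMPs are secreted dimers of the TGF-beta superfamily that bring type I and type II receptor kinases together. The type I receptor phosphorylates a receptor SMAD, which enters the nucleus with Smad4 and activates genes such as the Id genes and Smad6. Id proteins bind E proteins and so keep basic helix-loop-helix factors, several of which set acinar and endocrine identity in the pancreas, from binding DNA. Antagonists such as the product of Sostdc1 bind the ligands outside the cell, and the inhibitory SMADs act as negative feedback inside it. Sostdc1 also binds WNT co-receptors of the LRP family.

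Smad6, Id2 and Id3 are the target genes among the 10 with an entry in the RefSeq promoter table (GRCm38.p6), so their upstream sequences are printed as the places where SMAD-type motifs were looked for. Entries were also matched for Bmp4 and Acvr1c, 5 of 10 genes in all. Each line gives the 250 bases before the start of transcription in that table, 5′ to 3′ on the strand of the gene. Matches to GGCGCC, to the variant GGAGCC and to the SMAD box CAGAC on either strand are in capitals.
Smad6, chr9:64022060-64022309, minus strand: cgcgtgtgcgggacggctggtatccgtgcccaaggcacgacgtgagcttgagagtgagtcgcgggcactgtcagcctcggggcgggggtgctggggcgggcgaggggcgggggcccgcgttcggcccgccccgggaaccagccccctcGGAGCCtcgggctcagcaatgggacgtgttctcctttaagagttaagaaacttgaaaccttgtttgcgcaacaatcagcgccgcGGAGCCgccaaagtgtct
Id2, chr12:25096093-25096342, minus strand: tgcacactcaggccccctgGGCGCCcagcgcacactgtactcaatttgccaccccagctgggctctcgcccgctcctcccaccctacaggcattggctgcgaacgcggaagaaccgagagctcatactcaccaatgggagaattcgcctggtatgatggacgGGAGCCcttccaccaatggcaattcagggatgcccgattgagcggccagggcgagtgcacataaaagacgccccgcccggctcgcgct
Id3, chr4:136143572-136143821, plus strand: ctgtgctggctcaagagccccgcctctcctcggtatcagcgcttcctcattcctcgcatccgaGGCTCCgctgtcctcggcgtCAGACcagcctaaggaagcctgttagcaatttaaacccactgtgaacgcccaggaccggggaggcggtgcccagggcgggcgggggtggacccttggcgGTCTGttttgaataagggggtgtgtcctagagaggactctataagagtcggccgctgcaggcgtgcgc

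Positions count back from the start of transcription, whose last upstream base is -1. In the Smad6 window GGAGCC began at -102 and -18. In the Id2 window GGCGCC began at -231 and GGAGCC at -88. In the Id3 window GGAGCC began at -187 and CAGAC at -167 and -68. The SMAD-type palindrome GTCTAGAC, which joins the shorter GTCT and AGAC and holds no full CAGAC, lay across this start of Smad6, beginning at -4. The RefSeq span of the Smad6 gene reaches further upstream than this start. The palindrome and the GGAGCC at -18 therefore lie within that span. The palindrome is printed here in capitals with its neighbouring bases. The printed stretch of 24 bases is chr9:64022048-64022071 on the minus strand.
Smad6 start: gccaaagtGTCTAGACtggcatat

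These motifs differ in how common they are. Of 32851 RefSeq windows of 250 bases, 9.59% held GGCGCC, 26% GGAGCC, 42.2% CAGAC and 0.167% GTCTAGAC. With the first 50 transcribed bases included, as the Smad6 palindrome needs, GTCTAGAC was found in 0.213% of windows. The Bmp4 window held 1 GGAGCC, at -32, and neither of the 2 Acvr1c windows held any of the 4 motifs. A match is a description of the letters and not a measured binding site.

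Every level below is the log2 of the background-subtracted spot signal minus the 75th percentile of the same array, so 0 is as bright as that percentile. Levels are compared between groups and not between genes, because different probes differ in brightness for reasons other than RNA amount. The 75th percentile signal ranged from 152 to 529 intensity units over the 15 arrays and 54.9% to 76% of probes were well above background. The arrays lie on 3 slides: slides 1 and 3 hold all 4 groups, and slide 2 holds cerulein arrays only (wild type replicates 11 and 12, transgenic replicate 16). Differences are therefore given also from a model that includes slide and inside slides 1 and 3 alone. Slide 1 holds 2 transgenic cerulein arrays and 1 array of each other group. Slide 3 holds 3 wild type saline, 2 transgenic saline, 1 wild type cerulein and 1 transgenic cerulein array. Within a slide, each difference between treatments, or between genotypes after cerulein, thus has only 1 array on at least 1 side. The main probe of each of the 10 genes was well above background on all 15 arrays. A second Bmp4 probe was well above background on none and is left aside.

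**Figure D1:**
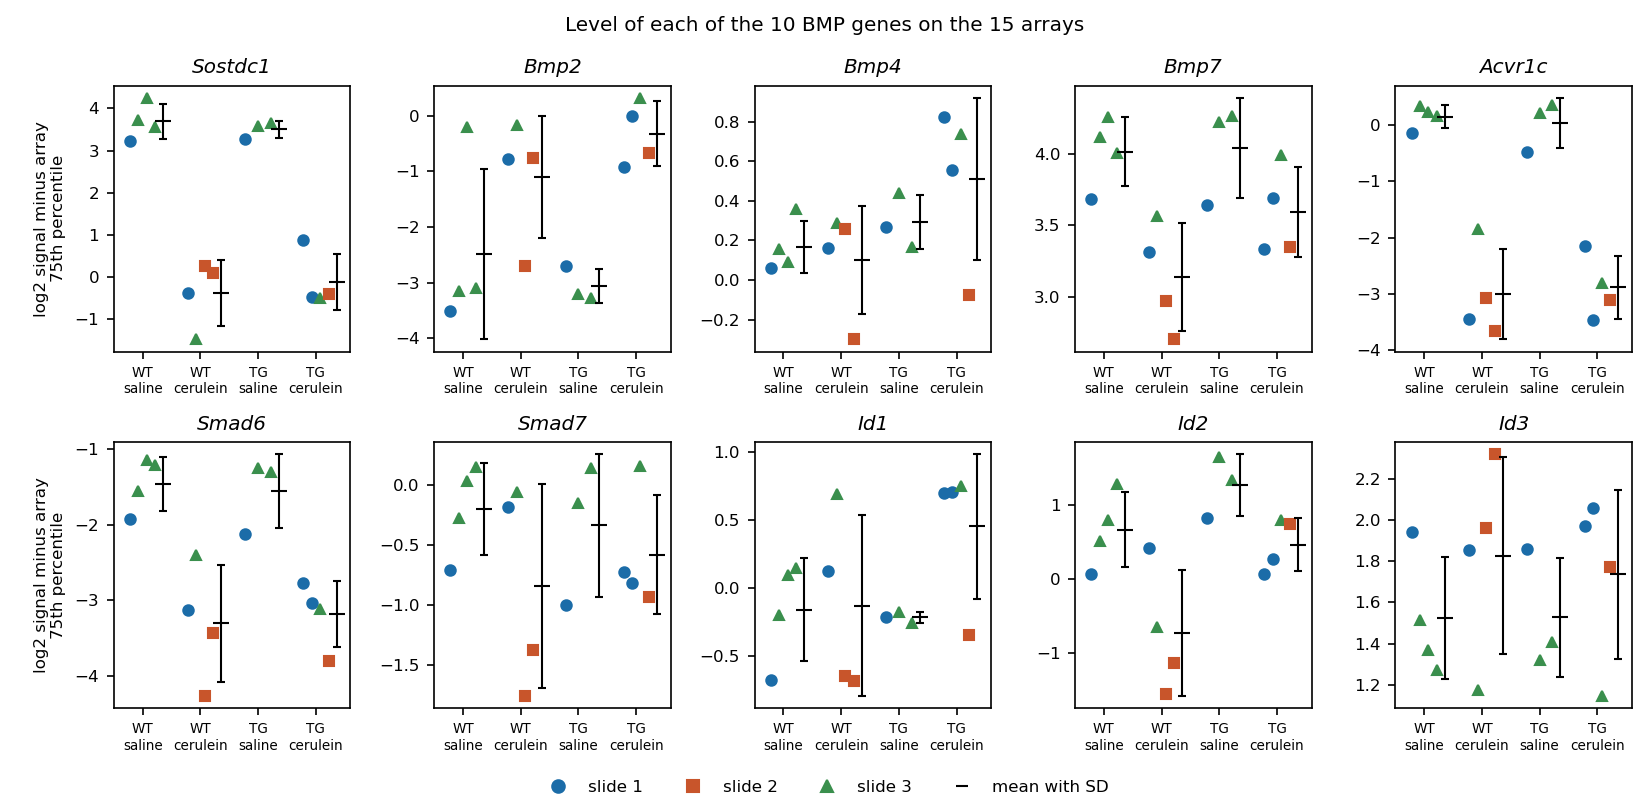
Log2 level (signal minus the array's 75th percentile) of each of the 10 BMP genes on the 15 arrays, by group, with symbols for the slide and a black bar for the group mean and SD; each panel has its own scale. Sostdc1, Acvr1c and Smad6 separate cerulein from saline in both genotypes, and 1 wild type saline array stands far above the others of its group for Bmp2.

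Sostdc1, an antagonist of BMP and WNT signals, was the gene with the lowest cerulein difference of all 17338 tested in wild type mice, and the third lowest in transgenic mice. In wild type mice given saline its levels were 3.24, 3.72, 4.25 and 3.56 (replicates 5 to 8). After cerulein they were -0.38, -1.49, 0.25 and 0.09 (replicates 9 to 12). Every cerulein array lay below every saline array, by at least the gap from 3.24 to 0.25. In transgenic mice the saline levels were 3.28, 3.58 and 3.66 (replicates 2 to 4), and the cerulein levels 0.87, -0.49, -0.49 and -0.40 (replicates 13 to 16). These groups did not overlap either, and replicate 13 stood above the other 3 cerulein arrays.

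The group means of Sostdc1 were 3.69 ± 0.42 (SD, n = 4) in wild type saline, 3.51 ± 0.20 (n = 3) in transgenic saline, -0.13 ± 0.67 (n = 4) in transgenic cerulein and -0.38 ± 0.78 (n = 4) in wild type cerulein. In this order the genotypes given the same treatment are neighbours, and their arrays overlap. The cerulein difference was -4.08 ± 0.39 (SE) in wild type mice, or 16.9-fold lower, and -3.63 ± 0.42 in transgenic mice, or 12.4-fold lower. Adding slide to the model gave differences of -4.36 and -3.81, and inside slides 1 and 3 they were -3.62 and -5.33 in wild type and -3.09 and -4.11 in transgenic mice. The second Sostdc1 probe gave -4.81 ± 0.44 and -4.45 ± 0.47. In whole tissue, fewer cells of a type and less RNA per cell cannot be told apart.

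Of the ligands, Bmp2, which also signals in bone and heart formation, was the gene with higher levels after cerulein. In wild type mice its saline levels were -3.51, -3.15, -0.20 and -3.09, and its cerulein levels -0.77, -0.17, -2.70 and -0.75. The 2 groups overlapped, because saline replicate 7 lay among the cerulein arrays and cerulein replicate 11 near the saline arrays. In transgenic mice the saline levels were -2.71, -3.20 and -3.28 and the cerulein levels -0.93, 0.00, 0.32 and -0.68, with no overlap.

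The cerulein difference of Bmp2 was 1.39 ± 0.66 in wild type mice and 2.74 ± 0.71 in transgenic mice, the latter a 6.70-fold higher level. Adding slide to the model gave 2.02 and 3.16. Within slides 1 and 3 they were 2.74 and 1.98 in wild type and 2.25 and 3.56 in transgenic mice. Without wild type saline replicate 7 the wild type difference was 2.15. With another background correction, normexp, the differences were smaller, 0.46 and 1.37.

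Bmp4, a ligand of mesoderm and gut patterning, differed little between treatments. Its wild type levels were 0.06, 0.16, 0.09 and 0.36 after saline and 0.16, 0.29, 0.26 and -0.30 after cerulein. Its transgenic levels were 0.27, 0.44 and 0.17 after saline and 0.83, 0.56, 0.74 and -0.08 after cerulein. The groups overlapped in both genotypes, and the cerulein differences were -0.07 ± 0.22 and 0.22 ± 0.24. In each genotype the lowest cerulein value came from slide 2.

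Bmp7, known for its part in kidney and eye development, had lower levels after cerulein in wild type mice. Its levels were 3.69, 4.12, 4.26 and 4.00 after saline and 3.32, 3.57, 2.97 and 2.70 after cerulein, with no overlap. In transgenic mice they were 3.64, 4.23 and 4.26 after saline and 3.33, 3.69, 3.99 and 3.35 after cerulein, and replicates 14 and 15 lay within the saline range. The differences were -0.88 ± 0.24 and -0.45 ± 0.26, and adjusted for slide -0.51 and -0.19. Inside slides 1 and 3 the wild type difference was -0.37 and -0.56.

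Acvr1c encodes a type I receptor of the activin branch, which signals for nodal and several growth differentiation factors and is known from adipose tissue and islets. Its wild type levels were -0.14, 0.34, 0.24 and 0.16 after saline and -3.45, -1.85, -3.07 and -3.65 after cerulein. Its transgenic levels were -0.48, 0.21 and 0.35 after saline and -2.14, -3.46, -2.80 and -3.12 after cerulein. The treatments were far apart in both genotypes, while the genotypes overlapped within each treatment.

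The cerulein difference of Acvr1c was -3.15 ± 0.37 in wild type mice (8.88-fold lower) and -2.91 ± 0.40 in transgenic mice (7.51-fold lower). It ranked the 13th lowest and the 12th lowest of 17338 genes. The second probe gave -3.23 ± 0.37 and -3.16 ± 0.40. Slide-adjusted differences of the main probe were -2.70 and -2.58. With normexp they were -1.93 and -1.92, closer to 0.

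Smad6, the inhibitory SMAD that acts mainly on BMP receptors, had lower levels after cerulein in both genotypes. In wild type mice its levels were -1.92, -1.55, -1.15 and -1.22 after saline and -3.13, -2.40, -4.27 and -3.44 after cerulein. In transgenic mice they were -2.13, -1.26 and -1.30 after saline and -2.78, -3.03, -3.12 and -3.81 after cerulein. No cerulein array reached the saline range of its genotype, and the lowest value of each genotype came from slide 2. The differences were -1.85 ± 0.36 and -1.62 ± 0.39, or 3.6-fold and 3.08-fold lower. They were -1.22 and -1.23 with slide in the model and -1.12 and -0.97 with normexp.

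Smad7, the inhibitory SMAD shared by the BMP and TGF-beta branches, overlapped between treatments. Its wild type levels were -0.71, -0.27, 0.03 and 0.15 after saline and -0.18, -0.06, -1.76 and -1.38 after cerulein. The 2 low cerulein values are the arrays of slide 2. Its transgenic levels were -1.0, -0.15 and 0.14 after saline and -0.73, -0.82, 0.16 and -0.93 after cerulein. The differences were -0.65 ± 0.40 and -0.24 ± 0.43, and with slide in the model 0.08 and 0.24, with the opposite sign.

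The 3 Id genes, which encode the inhibitors of basic helix-loop-helix factors, did not move alike. Id1 had wild type levels of -0.68, -0.20, 0.09 and 0.15 after saline and 0.12, 0.70, -0.65 and -0.69 after cerulein. Its transgenic levels were -0.21, -0.18 and -0.26 after saline and 0.70, 0.71, 0.75 and -0.34 after cerulein. The low cerulein values of Id1 in either genotype are again the 3 arrays of slide 2, and in the transgenic group replicate 16 stood apart from the other 3.

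For Id1 the cerulein difference was 0.03 ± 0.33 in wild type and 0.67 ± 0.36 in transgenic mice. Adjusted for slide it was 0.66 ± 0.16 and 1.04 ± 0.16. Within slides 1 and 3 it was 0.80 and 0.68 in wild type and 0.92 and 0.97 in transgenic mice, so each of the 4 within-slide values was positive. Whether slide 2 differs from the others through its animals or its handling cannot be told apart, since it holds no saline array.

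Id2 had wild type levels of 0.07, 0.51, 0.80 and 1.29 after saline and 0.42, -0.64, -1.55 and -1.13 after cerulein. Its transgenic levels were 0.82, 1.64 and 1.34 after saline and 0.07, 0.27, 0.79 and 0.74 after cerulein. The wild type groups overlapped through cerulein replicate 9, and the transgenic groups lay next to each other without overlap. The differences were -1.39 ± 0.38 and -0.80 ± 0.41. In wild type mice the difference was 0.34 within slide 1 and -1.51 within slide 3, so its sign differed between slides. Each of these values rests on 1 wild type cerulein array.

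Id3 had wild type levels of 1.94, 1.51, 1.37 and 1.27 after saline and 1.86, 1.17, 1.96 and 2.32 after cerulein. Its transgenic levels were 1.86, 1.32 and 1.41 after saline and 1.97, 2.06, 1.15 and 1.77 after cerulein. The groups overlapped in both genotypes, and the differences were 0.30 ± 0.28 and 0.21 ± 0.30, or -0.07 and -0.09 with slide in the model.

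**Figure D2:**
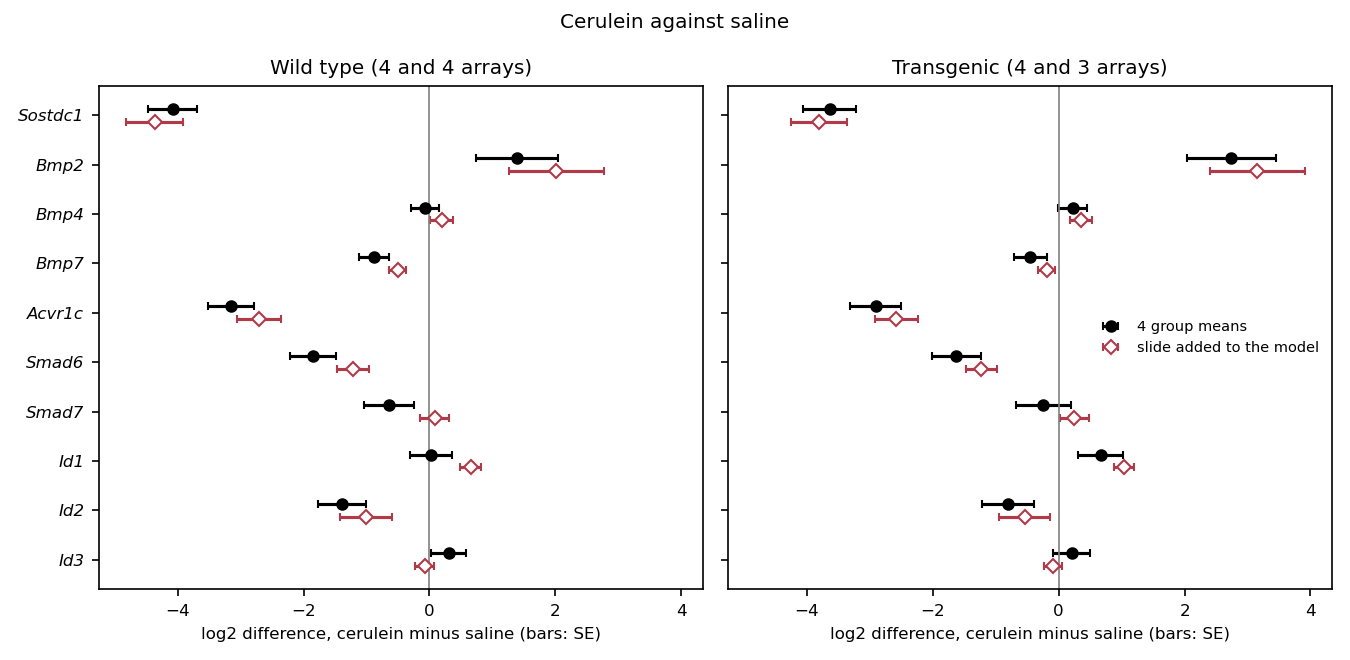
Log2 difference, cerulein minus saline, for each of the 10 BMP genes in wild type (left) and transgenic mice (right), with standard errors; filled circles are from the model of 4 group means and open diamonds from the model with slide added. Sostdc1, Acvr1c and Smad6 are negative in every case, and Id1 moves from 0.03 to 0.66 in wild type mice when slide is added.

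At an adjusted p below 0.05 in limma, the rule used for calls over all genes, 5 of the 10 genes were called lower in wild type mice (Sostdc1, Bmp7, Acvr1c, Smad6 and Id2) and 0 higher. Of all 17338 genes 8.35% were called lower and 5.64% higher. In transgenic mice 3 were called lower (Sostdc1, Acvr1c and Smad6) and 1 higher (Bmp2), against 3.41% and 4.78% of all genes. Groups did not overlap for 4 of the 10 genes in wild type mice (17.4% of all genes) and for 5 in transgenic mice (21.6%). Since the genes were chosen with these responses known, nothing is read from the counts.

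These counts depended on single arrays. With 1 array left out the Sostdc1 difference ranged from -4.29 to -3.71 in wild type and from -3.97 to -3.51 in transgenic mice, and that of Acvr1c from -3.53 to -2.93 and from -3.16 to -2.72. In wild type mice the calls of Bmp7 and of Id2 were both lost without any of replicates 6, 7, 8, 11 or 12, and Bmp2 was called without replicate 7. In transgenic mice the Smad6 call was lost without replicate 3, 4 or 16, and the Bmp2 call without replicate 2, 3, 4, 14 or 15. After adjustment for slide Id1 was called higher in both genotypes and Id2 in neither. Calls kept, lost or gained describe how the fits vary, and are not a test of genes chosen on these responses. That model called 13.8% of all genes higher and 7.79% lower in wild type mice, and 15.2% and 8.35% in transgenic mice.

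The genotypes were compared to see whether the 10 genes differ with the transgene. The check of the transgene was weak: Btc itself was 0.55 ± 0.48 higher in the transgenic group after saline (limma adjusted p = 1.00) and 0.49 ± 0.45 higher after cerulein (adjusted p = 0.837). The groups overlapped, and Btc was well above background on 1 of 4 wild type and 2 of 3 transgenic saline arrays. Whether the Btc probe detects the transgene's message is not given in the sources used here, so transgenic means the arrays labelled TG.

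After saline none of the 10 genes was called between genotypes (each limma adjusted p = 1.00), where 0.075% of all genes were called higher and 0% lower (0.225% and 0.00577% adjusted for slide). Groups did not overlap for 0 of the 10 genes, against 6.63% of all genes. The 95% interval of the difference, transgenic minus wild type, was -1.08 to 0.71 for Sostdc1, -0.97 to 0.74 for Acvr1c and -0.94 to 0.74 for Smad6. It was widest for Bmp2, from -2.09 to 0.94, whose wild type group holds the high replicate 7. The largest difference was that of Id2, 0.60 ± 0.41 with an interval of -0.28 to 1.48. With array weights Id2 was called higher in transgenic mice (0.85, limma adjusted p = 0.0434). The estimation of these weights stopped before its tolerance, and the share of all genes called with them is not given here.

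After cerulein none of the 10 genes was called either, against 0.138% of all genes higher and 0.00577% lower (0.513% and 0.144% adjusted for slide). Groups did not overlap for 0 of the 10 genes, against 2.51% of all genes. Id2 was 1.19 ± 0.38 higher in transgenic mice, with a 95% interval of 0.38 to 2.01 that lies above 0, a raw p of 0.0072 and a limma adjusted p of 0.406. The transgenic arrays (0.07 to 0.79) overlapped the wild type arrays (-1.55 to 0.42) through wild type replicate 9. Within slides the Id2 difference was -0.25, 2.08 and 1.43, and without slide 2 it was 0.49. For Sostdc1 the difference was 0.26 (interval -0.57 to 1.09, adjusted p = 0.876), and within slides it was 0.58, -0.57 and 0.99.

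The other genes after cerulein had intervals that include 0. Bmp7 was 0.45 higher in transgenic mice (-0.07 to 0.98), Bmp4 0.41 (-0.06 to 0.88), Id1 0.58 (-0.13 to 1.29) and Bmp2 0.78 (-0.62 to 2.18). Acvr1c differed by 0.12 (-0.67 to 0.92) and Smad6 by 0.12 (-0.65 to 0.90). The median difference over the 10 was 0.34, beside 0.10 over all genes tested, and with slide in the model 0.32 beside 0.04. The genes were chosen on responses that use these cerulein arrays, so nothing is read from the median.

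The cerulein response itself was not called different between genotypes for any of the 10 genes (interaction term, each limma adjusted p = 1.00), and 0% of all genes was called. The interaction was 0.44 for Sostdc1 (95% interval -0.78 to 1.66), 0.24 for Acvr1c (-0.93 to 1.41), 0.22 for Smad6 (-0.92 to 1.36) and 1.35 for Bmp2 (-0.71 to 3.42). The Bmp2 interval is the widest of the 10, and its interaction the largest. These p-values do not show that the responses are equal.

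**Figure D3:**
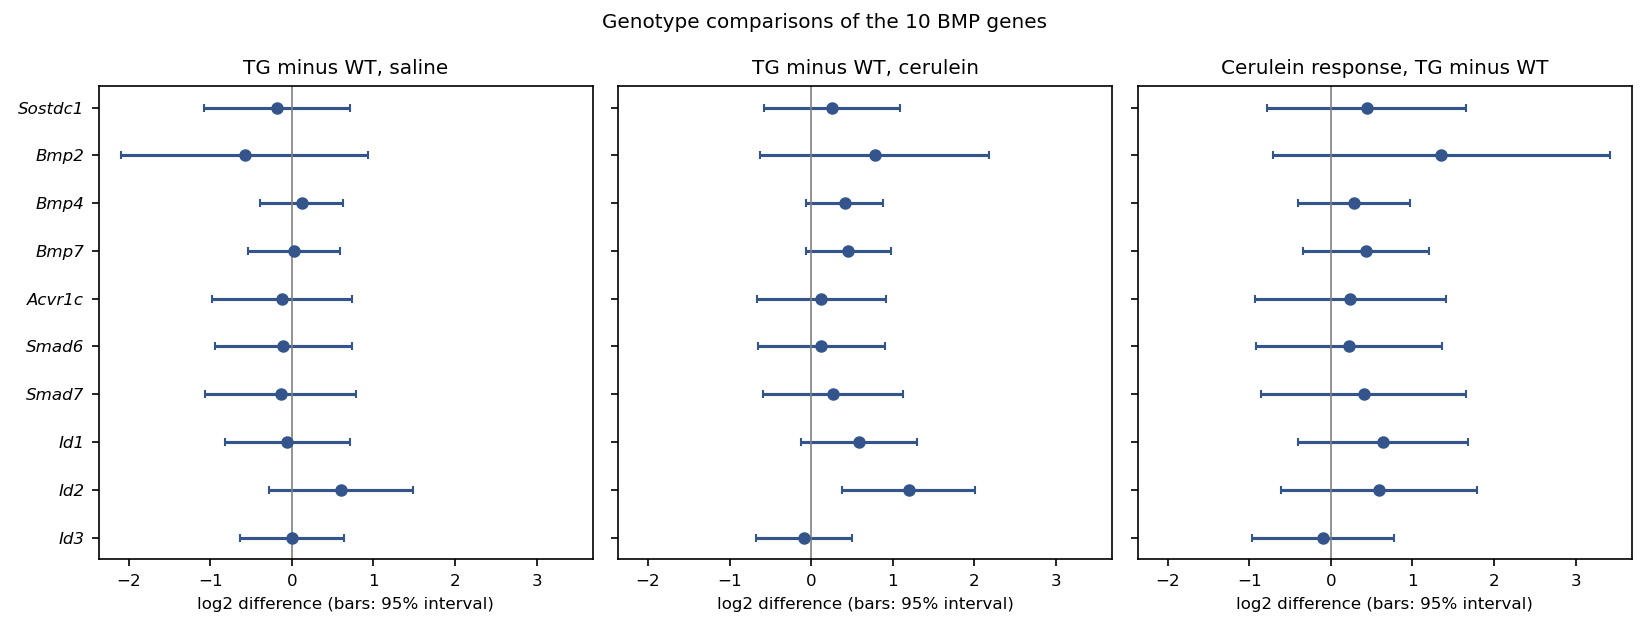
Log2 differences between genotypes for the 10 BMP genes after saline (left), after cerulein (middle) and in the cerulein response (right), with 95% intervals. All intervals include 0 except that of Id2 after cerulein, 0.38 to 2.01, whose adjusted p over all genes was 0.406.

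Around the 10 genes, 136 further genes in 7 lists cover the rest of the pathway and its neighbours, and 121 of them were tested. In wild type mice 10 rose and 13 fell after cerulein, where 5.64% of all genes were called higher and 8.35% lower. In transgenic mice 7 rose and 5 fell, against 4.78% and 3.41%. These shares of all genes also belong beside the counts of each list below, and nothing is read from those counts alone. With slide in the model 20 of the 121 were called higher and 9 lower in wild type mice (13.8% and 7.79% of all genes). In transgenic mice that model called 20 and 14 (15.2% and 8.35%). The lower counts turned on single arrays. The wild type count was 3 without replicate 6 or 7, 5 without replicate 11, 6 without replicate 8 or 12 and 23 without replicate 10. The transgenic count was 2 without replicate 3 or 4 and 3 without replicate 13, 14 or 16. The median difference over the lists was -0.07 in wild type and -0.06 in transgenic mice, beside -0.06 over all genes in both. Another 15 were not tested because too few arrays had signal, among them Bambi, a decoy receptor, the receptor SMAD Smad9, Id4 and Inhba.

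Among 23 tested ligands of the superfamily 1 rose and 1 fell in wild type, and 1 rose in transgenic mice. The ligand that rose was Gdf15, a distant member of the family induced by cell stress. Its wild type levels were -1.01, -0.62, -0.15 and -1.38 after saline and 3.16, 4.15, 2.98 and 3.1 after cerulein. It rose by 4.13 ± 0.54 (limma adjusted p = 0.000188) and by 4.46 ± 0.59 in transgenic mice (adjusted p = 0.000277). Inha, the inhibin alpha subunit, fell by 0.84 in wild type mice (adjusted p = 0.0466), a call that was lost with slide in the model (-0.43, adjusted p = 0.108) and kept in 1 of 8 refits that left out 1 array, that without replicate 10.

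Of 19 other antagonists and extracellular modulators, 1 rose and 1 fell in wild type, and 2 fell in transgenic mice. Chrdl2, a chordin-like antagonist, fell by 1.23 ± 0.31 in wild type (adjusted p = 0.0185) and by 1.18 ± 0.34 in transgenic mice (adjusted p = 0.0459). Fstl3, a follistatin-like binder of activin, rose by 1.10 in wild type mice (adjusted p = 0.049). Dand5, a nodal antagonist, fell by 0.80 in transgenic mice (adjusted p = 0.0391). The Chrdl2 call was lost without wild type replicate 6, 11 or 12, and in transgenic mice whichever array was left out (adjusted p = 0.0516 to 0.174). The Fstl3 call was kept in 1 of 8 such refits, without replicate 12, and the Dand5 call in 1 of 7, without replicate 15. With slide in the model all 4 calls were kept, at -0.69 and -0.83 for Chrdl2, 1.66 for Fstl3 and -0.75 for Dand5. The antagonist genes Nog, Chrd and Grem1 differed by 0.02, 0.34 and -0.09 in wild type mice, none of them called.

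Of 17 receptors and co-receptors 1 rose and 1 fell in each genotype. Acvr1, a type I receptor of BMPs, rose by 1.60 ± 0.34 in wild type (adjusted p = 0.00647) and by 1.55 ± 0.37 in transgenic mice (adjusted p = 0.0167). Its other probe gave 0.22 ± 0.19 and 0.56 ± 0.20, so the probes disagree in size. Rgma, a BMP co-receptor, fell by 0.88 and 1.04 (adjusted p = 0.0137 and 0.0113). Bmpr2, the type II receptor of BMPs, differed by 0.30 and 0.21 without a call, and was called higher with slide in the model (0.92 and 0.63, adjusted p = 0.000403 and 0.00412). Inside slides 1 and 3 its difference was 0.97 and 0.93 in wild type and 0.52 and 0.68 in transgenic mice. Bmpr1a, a type I receptor, differed by -0.74 and -0.61 without a call. The Acvr1 call in transgenic mice was lost without replicate 2, 3 or 14, and the Rgma calls without wild type replicate 7 or transgenic replicate 3 or 4.

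Among 21 SMADs and SMAD regulators 2 rose and 2 fell in wild type, and 2 rose and 1 fell in transgenic mice. The model with slide called 7 higher and 2 lower in each genotype. Tgif1, a repressor that binds SMADs, rose from levels of 1.52 to 1.86 on the 4 wild type saline arrays to 4.02 to 4.60 after cerulein. The difference was 2.65 ± 0.20 (adjusted p = 1.16e-06) and 2.81 ± 0.21 in transgenic mice (adjusted p = 2.53e-06). Skil, another SMAD corepressor, rose by 1.75 ± 0.30 and 1.57 ± 0.33 (adjusted p = 0.0016 and 0.00788), and its other probe gave 3.21 and 3.03. Tob1, an antiproliferative factor that represses BMP SMAD activity, fell by 2.67 ± 0.32 and 2.53 ± 0.35 (adjusted p = 9.95e-05 and 0.000417).

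Smad5, a receptor SMAD of BMPs, was called lower in wild type mice by its brightest probe (-0.96 ± 0.26, adjusted p = 0.0243), while its other probe gave 2.69 ± 0.35. The call was lost without replicate 6, 7, 8, 11 or 12. With the mean of both probes the sign turned, to 0.86, so the direction for Smad5 is not settled. Smad4, the SMAD shared by all branches, differed by 0.03 and 0.18 in the 2 genotypes without a call, and was called higher with slide in the model (0.51 and 0.52, adjusted p = 0.00572 and 0.0043). Smad1, another receptor SMAD of BMPs, differed by 0.03 and -0.02, and by 0.40 and 0.23 with slide.

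Of 14 other BMP and TGF-beta target genes 3 rose and 2 fell in wild type, and 1 rose in transgenic mice. Cdkn2b, a cell cycle inhibitor, rose by 1.54 in wild type mice (adjusted p = 0.0332). Hamp, the BMP target that encodes hepcidin in liver, fell by 1.40 (adjusted p = 0.0157). The Cdkn2b call was kept in 2 of 8 refits that left out 1 array, those without replicate 8 or 11, and the Hamp call was lost without replicate 6 or 7. Ccn2, connective tissue growth factor, rose by 0.85 ± 0.19 in wild type (adjusted p = 0.00893) and by 1.10 ± 0.21 in transgenic mice (adjusted p = 0.00393).

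Ccn2 was also the list gene called between genotypes in the model of 4 group means. Its levels after cerulein were 1.21, 1.51, 0.88 and 0.93 in wild type and 2.31, 2.23, 2.59 and 2.0 in transgenic mice, without overlap. The difference was 1.15 ± 0.19 (limma adjusted p = 0.0259), and within the 3 slides it was 1.07, 1.10 and 1.08. The call was lost when transgenic replicate 14 or 15 or wild type replicate 9, 11 or 12 was left out, with differences of 1.05 to 1.18 (adjusted p = 0.0675 to 0.116). After saline the levels were 0.23, 0.35, 0.18 and 0.37 in wild type and 1.25, 1.19 and 1.12 in transgenic mice, again without overlap, and the difference of 0.90 was called only with slide in the model (adjusted p = 0.265 without and 0.0066 with it). Fst, which encodes the activin binder follistatin, was 1.60 ± 0.31 higher in transgenic mice after cerulein, 3.04-fold, without overlap but without a call (limma adjusted p = 0.0675). It was called with slide in the model (1.59, adjusted p = 0.00917), and within the 3 slides the difference was 1.00, 1.91 and 1.97.

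Of 10 E proteins and basic helix-loop-helix partners, the proteins that Id proteins bind or act beside, 2 rose and 1 fell in wild type, and 2 rose in transgenic mice. Hes1, a NOTCH target, rose by 1.48 and 1.38 (adjusted p = 0.0116 and 0.0345). Ptf1a, an acinar master factor, rose by 1.17 and 1.68 (adjusted p = 0.0281 and 0.0077). Bhlha15, the factor of secretory acinar cells, fell by 1.24 in wild type mice (adjusted p = 0.0466), which was lost with slide in the model (-0.68, adjusted p = 0.154). The Bhlha15 call was kept without wild type replicate 5 or 10 and lost without any of the other 6 arrays, and the wild type Ptf1a call was lost without replicate 5, 6, 8 or 9. The transgenic Hes1 call was lost without replicate 2, 3, 13, 14 or 15. The E protein genes Tcf3, Tcf4 and Tcf12 differed by -0.49, -0.61 and 0.14 in wild type mice and were not called.

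Of 17 WNT co-receptors and feedback targets, the other pathway that Sostdc1 acts on, 5 fell in wild type mice and 1 in transgenic mice, and 0 rose in either (of all genes, 8.35% and 3.41% were called lower). The wild type count was 1 without replicate 6 or 7, 2 without replicate 8 or 11 and 3 without replicate 12, and the transgenic count was 2 without replicate 2 or 15. With slide in the model 3 and 5 were called lower. Rnf43, a ubiquitin ligase that removes WNT receptors, fell by 2.51 ± 0.29 and 1.73 ± 0.31 (adjusted p = 6.32e-05 and 0.00293). Lrp4, a receptor that binds Sostdc1, fell by 1.28 in wild type mice (adjusted p = 0.0387), Nkd1 by 1.09 and Ccnd1 by 1.06 (adjusted p = 0.0209 for each). With slide in the model the differences were -1.38 for Lrp4, -0.83 for Nkd1 and -0.82 for Ccnd1, and none was called (adjusted p = 0.0591, 0.067 and 0.0506). In transgenic mice Ccnd1 differed by -1.01 (adjusted p = 0.052) and was called with slide in the model (-0.82, adjusted p = 0.0454). A second Nkd1 probe, well above background on 7 arrays, gave 0.99 ± 0.69 in wild type mice. Its sign is the opposite, so the direction for Nkd1 is not settled. Without wild type replicate 6 or 7 none of these 3 wild type calls was kept, without replicate 8 those of Lrp4 and Ccnd1 were lost, without replicate 11 those of Nkd1 and Ccnd1, and without replicate 5, 10 or 12 that of Lrp4.

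**Figure D4:**
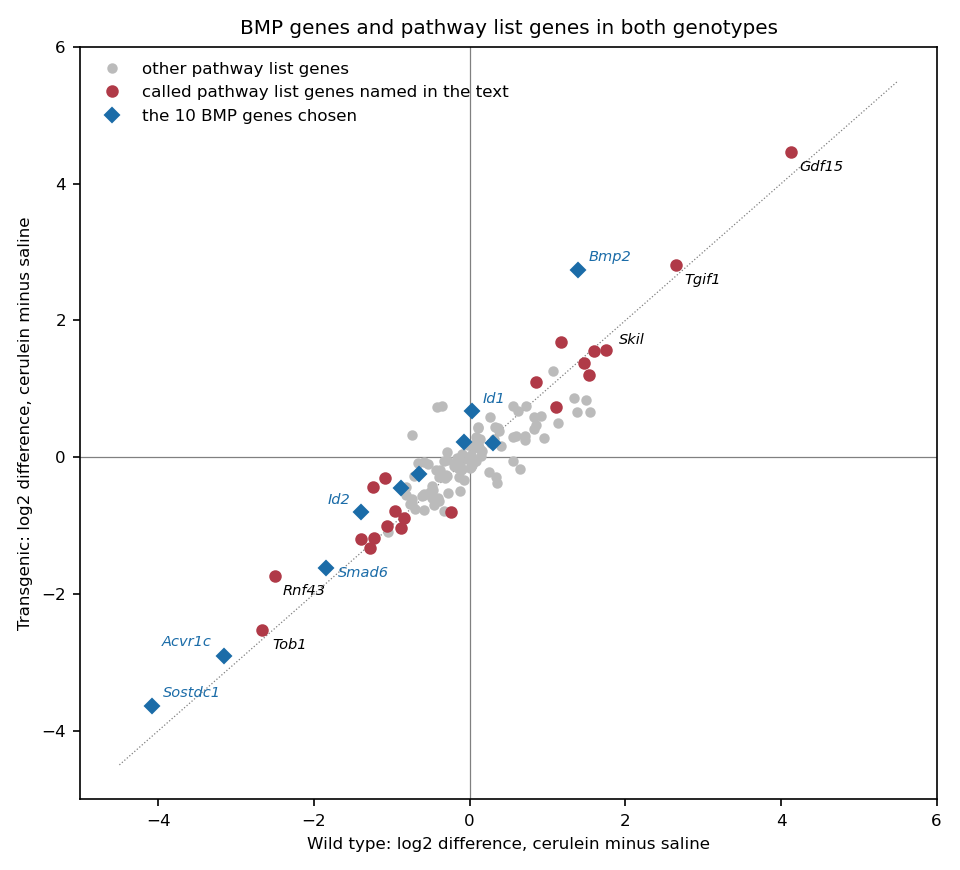
Log2 difference, cerulein minus saline, in wild type (horizontal) against transgenic mice (vertical), for the 10 BMP genes (blue diamonds), the called pathway list genes named in the text (red) and the other list genes (grey); the dotted line marks equal differences. Sostdc1, Acvr1c and Tob1 lie at the lower left and Gdf15 and Tgif1 at the upper right; no saline array is shared between the 2 axes.

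The genes whose levels ran most like those of Sostdc1 over the 15 arrays were Fam13a (Pearson's r = 0.978), Zfp579 (0.970), Slc22a17 (0.968), Cldn8 (0.958) and Ear6 (0.957). Those most like Acvr1c were Tm2d3 (0.986), Tob1 (0.983), Myom3 (0.980), Dexi (0.978) and Ctf1 (0.977). These correlations describe the 15 arrays, which share slides and fall into saline and cerulein arrays, and carry no test.

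Markers of the cell types in the tissue moved with treatment in the following way. Of all genes, 8.35% were called lower and 5.64% higher in wild type mice, and 3.41% and 4.78% in transgenic mice. All 12 acinar markers on the array had signal, their median cerulein difference was -0.80 in wild type and -0.70 in transgenic mice (-0.26 and -0.37 with slide in the model), and 2 and 1 were called lower. The 17 tested islet markers had medians of -0.58 and -0.44 (-0.11 and -0.08 with slide), with 0 called. The 13 adipocyte markers had medians of -0.79 and -0.38 (-0.64 and -0.39 with slide), with 0 called. The 13 endothelial markers had medians of -0.36 and -0.22 (-0.12 and -0.04 with slide), also with 0 called. The medians of 9 duct markers were 0.29 and 0.18, and turned to -0.08 and -0.05 with slide. Of these 9 markers 3 were called lower in wild type and 2 in transgenic mice. They were Sox9 (-1.68 ± 0.32 and -1.27 ± 0.35), a duct and progenitor factor, Onecut1 (-1.70 ± 0.51 and -2.61 ± 0.55, well above background on 5 of 15 arrays) and, in wild type mice, the mucin gene Muc1 (-0.98 ± 0.31). After adjustment for slide 1 duct marker was called higher and 1 lower in wild type mice, and 1 and 2 in transgenic mice. Of 11 tested leukocyte markers 3 were called higher in wild type and 1 in transgenic mice. Their medians were 0.08 and -0.36 (0.11 and -0.17 with slide). S100a8 and S100a9, neutrophil genes, were 2.38 ± 0.69 and 2.85 ± 0.71 higher in wild type mice and 0.84 and 0.75 higher in transgenic mice without a call. Cd14, a monocyte receptor, was 1.36 ± 0.19 and 1.24 ± 0.20 higher. The part of these cell types in the differences of the 10 genes was not tested.

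Beside Acvr1c, which adipose tissue and islets are known to express, the summed level of the adipocyte markers, in multiples of the 75th percentile signal, was 26.4 to 74.8 on wild type saline and 22.2 to 41.3 on wild type cerulein arrays. In transgenic mice it was 29.4 to 34.7 and 28.2 to 30.6. The summed level of the islet markers was 640 to 1213 and 440 to 929 in wild type mice, and 1188 to 1448 and 475 to 1377 in transgenic mice. The ranges of both sums overlapped between treatments in each genotype, while their medians were lower after cerulein. The adipocyte median was 43.5 after saline and 31.1 after cerulein in wild type mice, and 32.0 and 29.0 in transgenic mice. The islet median was 963 and 530 in wild type mice, and 1316 and 855 in transgenic mice. Acvr1c lay below the saline range on every cerulein array, and the part of these cell types in its difference was not tested.

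The fibroblast and stellate cell markers moved with genotype, beside Ccn2 and Id2. After cerulein 3 of 12 were called higher in transgenic mice (0.138% of all genes), with a median difference of 1.36. After saline the median was 0.86 with 0 called (0.075% of all genes). With slide in the model 6 were called higher after cerulein and 2 after saline, beside 0.513% and 0.225% of all genes. Groups did not overlap for 6 of the 12 after cerulein (2.51% of all genes) and for 6 after saline (6.63%). The summed level of these markers was 59.9 to 91.5 on wild type saline, 99.3 to 176 on transgenic saline, 44.9 to 90.9 on wild type cerulein and 119 to 246 on transgenic cerulein arrays. Their part in the Ccn2 and Id2 differences was not tested.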

How the data were processed

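The deposited scanner files hold spot signals in units of fluorescence intensity, made by the authors with version 10.7.3.1 of Agilent's Feature Extraction program, as the file headers record. It subtracted background, and arrays were not adjusted to each other. The flag columns deposited beside them are of another kind (other: 0 or 1 per spot). The deposited series table holds log2 values that the authors normalised. The method is not given in the sources used here. Set against each array's own log2 signal, its columns gave r = 0.987 to 0.998 and had medians of 6.56 to 6.94, which shows a log2 scale without centring per gene. It served as an alternative only.

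Here the 59305 non-control spots, less 105 to 188 outlier spots per array, were averaged to 55681 probes. Accessions were matched without version to RefSeq (GRCm38.p6), which named 27235 probes. Coordinates printed are those of RefSeq's windows on that build, and none was taken from the array files. Log2 signal minus the array's 75th percentile (over probes) was used, probes well above background on at least 3 arrays were kept (42181), and each of 17338 genes was read from its brightest kept probe. Of the 13 probes of the 10 genes, 12 were kept.

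Comparisons used limma (version 3.58.1, R 4.3.3; lmFit and eBayes on 4 group means of 15 arrays, 11 residual and 3.54 prior degrees of freedom, two-sided, Benjamini-Hochberg over genes within each of 5 comparisons, called at an adjusted p below 0.05). Files were read with version 1.17.8 of data.table and figures drawn with matplotlib 3.10.9. Errors of differences are standard errors and errors of group means standard deviations. The number of arrays limits the precision. The fit was tested on simulated data without a slide effect, so that test does not cover the uneven layout of the slides. The members, the lists and the tests were chosen with earlier results of these data known. Named genes are the 10 genes; of each list in each cerulein comparison the called genes, or the 4 with the largest change; all list genes called between genotypes; the 5 genes most like Sostdc1 and Acvr1c; and Btc. A list gene that this rule names is not reported here. Uncalled list genes named beside them were chosen after their values were seen. Alternatives were slide as a block, within-slide values, normexp with offset 50 (on median spot signals in place of the planned mean signals), quantile normalization, no filter and an all-array filter, the mean of a gene's probes, the deposited series table, array weights (whose estimation stopped before its tolerance), leaving out slide 2, and leaving out each array. Replicates are separate animals per the labels.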

Additional observations from a re-analysis of the deposited data

Results flagged for a closer look

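In 3 of 30 groups of 4 arrays tested, an array stood apart from its group by Dixon's criterion at the 95% level, where chance gives about 1 in 20 groups. Sostdc1 was 0.87 in transgenic cerulein replicate 13, on slide 1, while the next value was -0.40 and the other arrays went down to -0.49. Without that array the transgenic cerulein difference of Sostdc1 changed from -3.63 to -3.97, and the difference from wild type after cerulein changed from 0.26 to -0.08. Bmp2 was -0.20 in wild type saline replicate 7, on slide 3, while the next value was -3.09 and the lowest -3.51. Without it the wild type cerulein difference of Bmp2 changed from 1.39 to 2.15. Id1 was -0.34 in transgenic cerulein replicate 16, the transgenic array on slide 2, while the other arrays lay between 0.70 and 0.75.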

How the results depend on the processing

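The lower levels of Sostdc1, Acvr1c and Smad6 after cerulein kept their direction in both genotypes under each alternative tried. The cause of the changes that follow was not tested. The counts of the 10 genes are a description, since the genes were chosen on these responses: 5 were called lower in wild type mice, 3 without slide 2 and 3 to 5 when arrays were left out in turn. There, 0 were called higher, 1 with slide in the model and 0 to 1 when arrays were left out. In transgenic mice 1 was called higher, 2 with slide or without slide 2, 3 with array weights, and 0 to 1 with arrays left out; 3 were called lower, 6 with array weights. Array weights also called 1 gene, Id2, higher in transgenic mice after saline (0.85, limma adjusted p = 0.0434). For the pathway lists the wild type counts of 10 higher and 13 lower became 20 higher with slide, 22 and 29 with array weights, 3 lower without slide 2, and 3 to 23 lower with arrays left out (3 without replicate 6 or 7, 5 without 11, 6 without 8 or 12, 23 without 10). The transgenic counts of 7 and 5 became 20 and 14 with slide, 28 and 39 with array weights, and for the lower calls 10 with normexp, 10 with quantile normalization, 3 with no filter, 8 with the all-array filter and 2 to 6 with arrays left out (2 without replicate 3 or 4, 3 without 13, 14 or 16). Apart from the model with slide, these counts are given without the share of all genes called in the same setting. They therefore do not show a change particular to the 10 genes or to the lists. The wild type Smad5 difference turned to 0.86 with the mean of its probes, and that of Id2 to 0.34 within slide 1.

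No genotype difference of the 10 genes was called in the model of 4 group means, and several that lay near 0 changed sign. With array weights the values were, after saline, -0.094 for Id3, 0.12 for Smad6 and 0.052 for Smad7, after cerulein 0.052 for Id3 and -0.12 for Sostdc1, and in the response 0.15 for Id3 and 0.62 for Btc. The response difference of Btc was also 0.18 in the deposited series table, 0.21 with normexp and 0.025 with quantile normalization. With normexp Acvr1c after cerulein was -0.050 and Btc after saline -0.026. With slide in the model Smad6 was -0.069 after cerulein and -0.0088 in the response, and Id3 -0.049 after saline. Without slide 2 the values after cerulein were -0.15 for Acvr1c, -0.13 for Btc, 0.21 for Id3, -0.21 for Smad6 and -0.34 for Smad7, and in the response -0.035 for Acvr1c, -0.11 for Id2, 0.20 for Id3, -0.11 for Smad6 and -0.21 for Smad7.

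With arrays left out in turn, the saline differences ranged from -0.28 to 0.14 for Acvr1c, -0.26 to 0.18 for Smad6, -0.38 to 0.20 for Smad7, -0.16 to 0.14 for Id3, -0.084 to 0.23 for Bmp7, -0.34 to 0.00059 for Sostdc1, -0.92 to 0.19 for Bmp2 and -0.23 to 0.046 for Id1. Those after cerulein ranged from -0.11 to 0.47 for Sostdc1, -0.12 to 0.51 for Acvr1c, -0.20 to 0.43 for Smad6, -0.31 to 0.11 for Id3 and -0.041 to 0.53 for Smad7. Those in the response ranged from -0.014 to 0.63 for Acvr1c, -0.095 to 0.53 for Smad6, -0.31 to 0.10 for Id3 and -0.32 to 0.31 for Btc. No paired analysis was possible because the labels number each animal separately and no number is shared between groups. The number of arrays and signal near background, as for Btc, limit what can be detected.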
